A study of Mus musculus with 8 samples.

Results

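Microglia are the resident immune cells of the brain, and 9 genes that mark them were examined in the amygdala of mice that drank plain water or water with the sweetener aspartame. The genes were *Csf1r*, *Cx3cr1*, *P2ry12*, *Tmem119*, *Aif1*, *Trem2*, *C1qa*, *C1qb* and *C1qc*. They were taken by name, and 9 of 9 were found among the 24982 genes of the deposited table. RNA was sequenced from 8 male C57BL/6 mice with 1 library per animal, of which 4 drank plain water and 4 drank water containing 0.03% aspartame. By the labels the exposure lasted 18 weeks, whereas the study's methods state a shorter time. All mice were bought at 8 weeks of age, were group housed, carried no genetic alteration by the labels, and were 187 to 189 days old at collection. Libraries are named here by group and number, as water 1 and aspartame 1. The amygdala, a brain region that regulates fear and anxiety, was microdissected whole, so each library mixes the RNA of all its cell types. In such bulk tissue, fewer microglia and less of an mRNA per microglial cell cannot be told apart.

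Microglia depend for their survival on the receptor that *Csf1r* encodes, and they survey neurons with purinergic and chemokine receptors that detect injury and neuronal signals. In the healthy adult brain they express a set of homeostatic genes that falls when the cells become activated. They are also the main brain source of C1q, the protein complex that starts the classical complement cascade and can tag synapses for removal. C1q is built from A, B and C chains encoded by *C1qa*, *C1qb* and *C1qc*.

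The values are regularized log2 (rlog) values, which are log2 counts scaled for library size in which weakly counted genes are drawn toward their mean. A difference between groups is therefore one of mean rlog, that of aspartame less that of plain water. A fold derived from it understates a change of a weakly counted gene. The study left 1 aspartame sample out after a principal component analysis without naming it. Aspartame 2 was taken as that sample, a choice set before the fits, and its score on the first principal component was the farthest from 0. This component held 55.8% of the variance. Aspartame 2 scored 27.56, the plain water libraries -4.32 to 10.34, and aspartame 1, 3 and 4 scored -17.92, -5.55 and -24.01. Aspartame 1, 3 and 4 thus also lay outside the plain water range, on the side opposite to aspartame 2. Aspartame 4 lay farther from that range than aspartame 2 did. The libraries correlated with each other across genes at 0.971 to 0.997. Aspartame 2 also had the lowest level of GC-rich relative to GC-poor genes, with a gap of -0.65 on the log2 scale. This gap was -0.22 to 0.20 in plain water, and 0.38, 0.032 and 0.46 in aspartame 1, 3 and 4. Differences of single genes are given first for 7 libraries, 4 plain water against aspartame 1, 3 and 4, and then for all 8, while ratios and correlations are given first for all 8 and then without aspartame 2. Testing with limma covered the genes that varied and whose mean rlog was at least 3, and a gene was called at an adjusted p under 0.05. Without aspartame 2, 1134 of 12870 genes (8.81%) were called, and 110 without water 3, 215 without water 4, 274 without aspartame 4, 371 without water 2 and 2082 without aspartame 3 as well. With all 8 libraries, 0 of 12861 genes (0%) were called and 553 (4.3%) had an unadjusted p under 0.05.

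None of the 9 genes was called, with or without aspartame 2. All 9 passed the filter on low values. Without aspartame 2, limma called 0 of 9 and 1 of 9 (*C1qa*) had an unadjusted p under 0.05, where 27.1% of all genes tested did. Over all 8, 0 of 9 were called and 0 of 9 had an unadjusted p under 0.05. The plain water and aspartame libraries overlapped in every one of the 9 genes in both comparisons, whereas the groups did not overlap in 23% of all genes without aspartame 2 and in 3.37% with all 8. Without aspartame 2, 3 of the 9 genes had a higher mean with aspartame, and the median difference was -0.0078, beside -0.0042 over all genes. Over all 8 libraries, 2 of 9 were higher and the median difference was -0.095, beside 0.0033 over all genes. Among the 95% intervals of the 9 differences, the bound farthest from 0 was on the side of a decrease in both comparisons. It was -0.47 on the log2 scale (*P2ry12*, 1.39-fold lower) without aspartame 2 and -0.45 (*Csf1r*, 1.37-fold lower) with all 8.

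**Figure D1:**
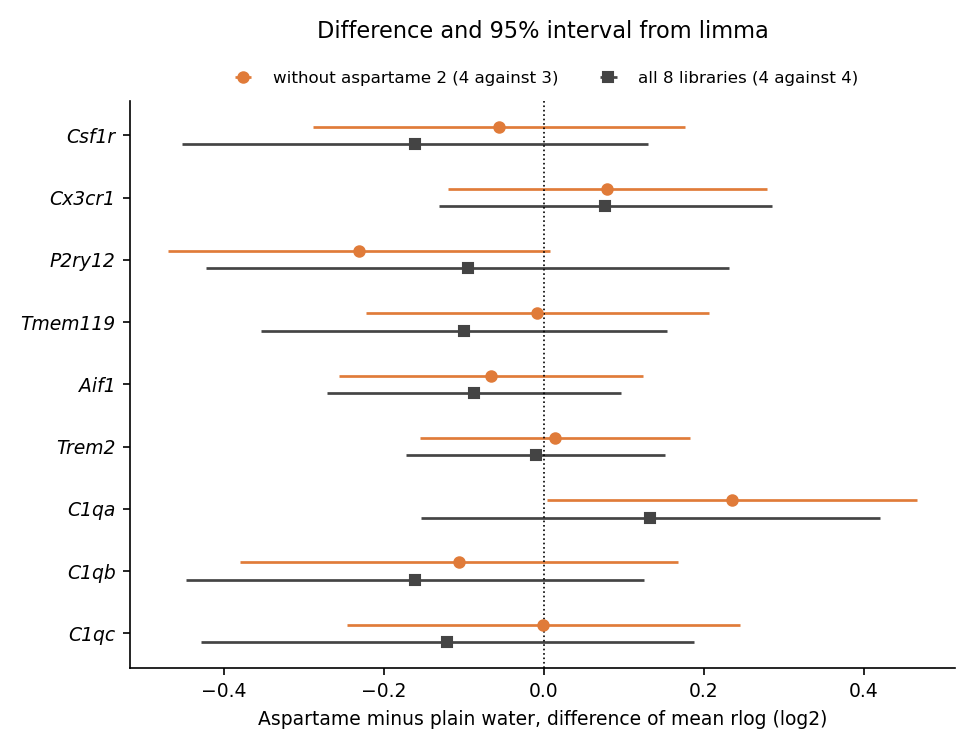
Difference of mean rlog, aspartame minus plain water, on the log2 scale (horizontal axis) for each of the 9 genes (vertical axis). Circles and squares are limma estimates without aspartame 2 (4 against 3 libraries) and with all 8 (4 against 4), and bars are 95% intervals. Only the interval of *C1qa* without aspartame 2 (0.0045 to 0.47) lies off 0, and its adjusted p was 0.177.

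Compared per kilobase of transcript, the 9 genes differed widely in level in the plain water libraries. On this scale, rlog minus log2 of transcript length in kilobases, *P2ry12* had the highest mean level at 7.15, with libraries from 6.83 to 7.34. It was followed by *C1qa* at 6.997 (6.90 to 7.06), whose range lay inside that of *P2ry12*. *C1qb* at 6.62 (6.51 to 6.76) lay below all *C1qa* values, and *Csf1r* at 5.94 (5.81 to 6.06) lay below all *C1qb* values. *Cx3cr1* at 5.55 (5.43 to 5.74) and *C1qc* at 5.45 (5.38 to 5.59) overlapped each other. *Aif1* at 4.71 (4.63 to 4.82) stood apart from its neighbors, and *Trem2* at 3.86 (3.78 to 4.00) and *Tmem119* at 3.81 (3.73 to 3.90) overlapped at the low end. The A chain gene thus had a higher level per length than the B and C chain genes in plain water.

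*Csf1r* encodes the receptor for the growth factors CSF1 and IL-34. It lies on chromosome 18 from 61100598 to 61132149 on the plus strand (coordinates here and below are of GRCm38, the mm10 build). Its rlog was 8.16, 8.30, 8.04 and 8.18 in water 1 to 4, and 8.18, 7.70, 7.86 and 8.31 in aspartame 1 to 4. Aspartame 2 and 3 were below every plain water library, while aspartame 1 and 4 were within or above their range. The difference was -0.056 (SE 0.107, adjusted p = 0.778) without aspartame 2 and -0.16 (SE 0.133, adjusted p = 0.903) with all 8. Leaving out aspartame 3 in addition to aspartame 2 turned it to 0.071.

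*Cx3cr1* encodes the receptor for fractalkine, a chemokine that neurons display, and lies on chromosome 9 from 119901616 to 120069879 on the minus strand. Its rlog was 7.60, 7.91, 7.66 and 7.71 in water 1 to 4, and 7.87, 7.79, 7.83 and 7.69 in aspartame 1 to 4. All 4 aspartame values lay within the plain water range, and the difference was 0.080 (SE 0.091, adjusted p = 0.617) without aspartame 2 and 0.077 (SE 0.095, adjusted p = 0.918) with all 8.

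*P2ry12* encodes an ADP receptor that directs microglial processes to sites of injury, and lies on chromosome 3 from 59216272 to 59262871 on the minus strand. Its rlog was 8.06, 8.57, 8.44 and 8.45 in water 1 to 4, and 8.12, 8.69, 8.19 and 8.13 in aspartame 1 to 4. Aspartame 2 had the highest value of all 8 libraries and the other 3 aspartame libraries lay below water 2, 3 and 4, but water 1 was the lowest of all. Plain water averaged 8.38 ± 0.22 (SD, n = 4) and aspartame 1, 3 and 4 averaged 8.15 ± 0.036 (SD, n = 3), a difference of -0.23 (SE 0.109), or 0.852-fold, with an adjusted p of 0.198 from limma. With all 8 libraries the difference was -0.095 (SE 0.149, adjusted p = 0.937). Without water 1 and aspartame 2 the gene was called, at -0.34 (adjusted p = 0.0298), so the presence of water 1 decided the call. Once each library's trend with GC content and transcript length was removed, the difference was -0.023 (adjusted p = 0.905).

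*Tmem119* encodes a membrane protein that separates microglia from other macrophages, and lies on chromosome 5 from 113793729 to 113800516 on the minus strand. Its rlog was 5.03, 5.06, 4.90 and 4.89 in water 1 to 4, and 4.95, 4.60, 4.80 and 5.14 in aspartame 1 to 4. The order of the aspartame libraries was that seen for *Csf1r*, with aspartame 2 and 3 below all plain water values and aspartame 4 the highest of all. The difference was -0.0078 (SE 0.098, adjusted p = 0.968) without aspartame 2 and -0.10 (SE 0.115, adjusted p = 0.916) with all 8. It was 0.074 without aspartame 3, 0.023 without water 2 and 0.013 without water 1, each left out beside aspartame 2.

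*Aif1* encodes IBA1, the calcium-binding protein used to stain microglia, and lies on chromosome 17 from 35170991 to 35176068 on the minus strand. Its rlog was 4.43, 4.44, 4.57 and 4.63 in water 1 to 4, and 4.49, 4.37, 4.34 and 4.54 in aspartame 1 to 4. Aspartame 3 was the lowest of all and water 4 the highest, with the groups overlapping between. The difference was -0.066 (SE 0.087, adjusted p = 0.669) without aspartame 2 and -0.087 (SE 0.084, adjusted p = 0.913) with all 8.

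*Trem2* encodes a lipid-sensing receptor that signals through the adaptor TYROBP and is needed for microglial activation. It lies on chromosome 17 from 48346401 to 48354147 on the plus strand. Its rlog was 3.96, 4.12, 3.93 and 3.90 in water 1 to 4, and 3.98, 3.90, 3.99 and 4.01 in aspartame 1 to 4. This was the lowest rlog of the 9 genes, with a range of 0.22 over all libraries, and the aspartame values lay within or at the edge of the plain water range. The difference was 0.014 (SE 0.077, adjusted p = 0.926) without aspartame 2 and -0.0099 (SE 0.074, adjusted p = 0.986) with all 8. Its sign also turned without water 3 (-0.0015) or water 4 (-0.013) beside aspartame 2.

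The genes of the 3 C1q chains lie next to each other on the minus strand of chromosome 4, in 18675 bases from 136880129 to 136898803. *C1qb* spans 136880129 to 136886187, *C1qc* 136889804 to 136893065 and *C1qa* 136895917 to 136898803, with 3616 and 2851 bases between them. RefSeq promoter sequences on GRCm38.p6 were matched for 6 of the 9 genes by symbol, and each was searched over the 250 bases before its start for AGGAAGT or its reverse complement ACTTCCT, the only motif searched. These letters form a core that ETS factors such as PU.1, the macrophage regulator, are known to bind, and they were chosen with these sequences in view. They were found in 3 of the 6 promoters (*C1qb*, *C1qc* and *P2ry12*; not in *Cx3cr1*, *Aif1* or *Trem2*), and in 2525 of 32851 promoters of the same length (7.69%). *Csf1r*, *Tmem119* and *C1qa* were not matched. A match is a description of the letters and not of a bound site. The 3 promoters that held the letters are shown, with the match in capitals. They lie on the minus strand at chr4:136886201-136886450, chr4:136893066-136893164 (the part upstream of the annotated gene) and chr3:59262986-59263235, and are written from 5′ to 3′ of the gene.
C1qb: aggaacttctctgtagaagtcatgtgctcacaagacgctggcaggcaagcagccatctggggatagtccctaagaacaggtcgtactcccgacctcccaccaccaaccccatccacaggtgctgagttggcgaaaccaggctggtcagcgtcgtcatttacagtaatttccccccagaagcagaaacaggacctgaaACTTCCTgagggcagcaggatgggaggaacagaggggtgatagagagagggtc
C1qc: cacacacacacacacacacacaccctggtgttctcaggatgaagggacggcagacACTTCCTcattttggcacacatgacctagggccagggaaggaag
P2ry12: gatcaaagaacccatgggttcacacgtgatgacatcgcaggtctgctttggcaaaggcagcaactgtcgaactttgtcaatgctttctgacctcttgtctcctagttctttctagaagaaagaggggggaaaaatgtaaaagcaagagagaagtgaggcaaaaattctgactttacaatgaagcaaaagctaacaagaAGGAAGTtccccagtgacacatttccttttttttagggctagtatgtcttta

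*C1qa* encodes the A chain of C1q, and its rlog was 7.11, 7.10, 6.95 and 7.04 in water 1 to 4, and 7.33, 6.88, 7.05 and 7.50 in aspartame 1 to 4. Aspartame 1 and 4 were above every plain water library, aspartame 3 was within their range and aspartame 2 was below it. Plain water averaged 7.05 ± 0.074 (SD, n = 4) and aspartame 1, 3 and 4 averaged 7.29 ± 0.23 (SD, n = 3). The difference was 0.24 (SE 0.106), or 1.18-fold, with an unadjusted p of 0.0464 and an adjusted p of 0.177 from limma. With all 8 libraries it was 0.13 (SE 0.131, adjusted p = 0.913). Without aspartame 3 as well as aspartame 2 the gene was called, at 0.36 (adjusted p = 0.0221), so that aspartame 3 decided the call, and with the trend of GC content and length removed the difference was 0.11 (adjusted p = 0.467).

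*C1qb* encodes the B chain, and its rlog was 6.88, 6.73, 6.72 and 6.63 in water 1 to 4, and 6.89, 6.42, 6.31 and 6.70 in aspartame 1 to 4. Aspartame 2 and 3 were below all plain water libraries, and aspartame 1 was the highest of all 8. The difference was -0.11 (SE 0.125, adjusted p = 0.630) without aspartame 2 and -0.16 (SE 0.130, adjusted p = 0.903) with all 8, and it was 0.055 without aspartame 2 and 3.

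*C1qc* encodes the C chain, and its rlog was 5.86, 5.65, 5.69 and 5.66 in water 1 to 4, and 5.93, 5.23, 5.48 and 5.73 in aspartame 1 to 4. The order of the libraries resembled that of *C1qb*, with aspartame 1 highest and aspartame 2 and 3 below all plain water libraries. The difference was -0.00042 (SE 0.112, adjusted p = 0.9995) without aspartame 2 and -0.12 (SE 0.140, adjusted p = 0.916) with all 8. Beside aspartame 2, leaving out aspartame 3 gave 0.12 and leaving out water 1 gave 0.048.

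**Figure D2:**
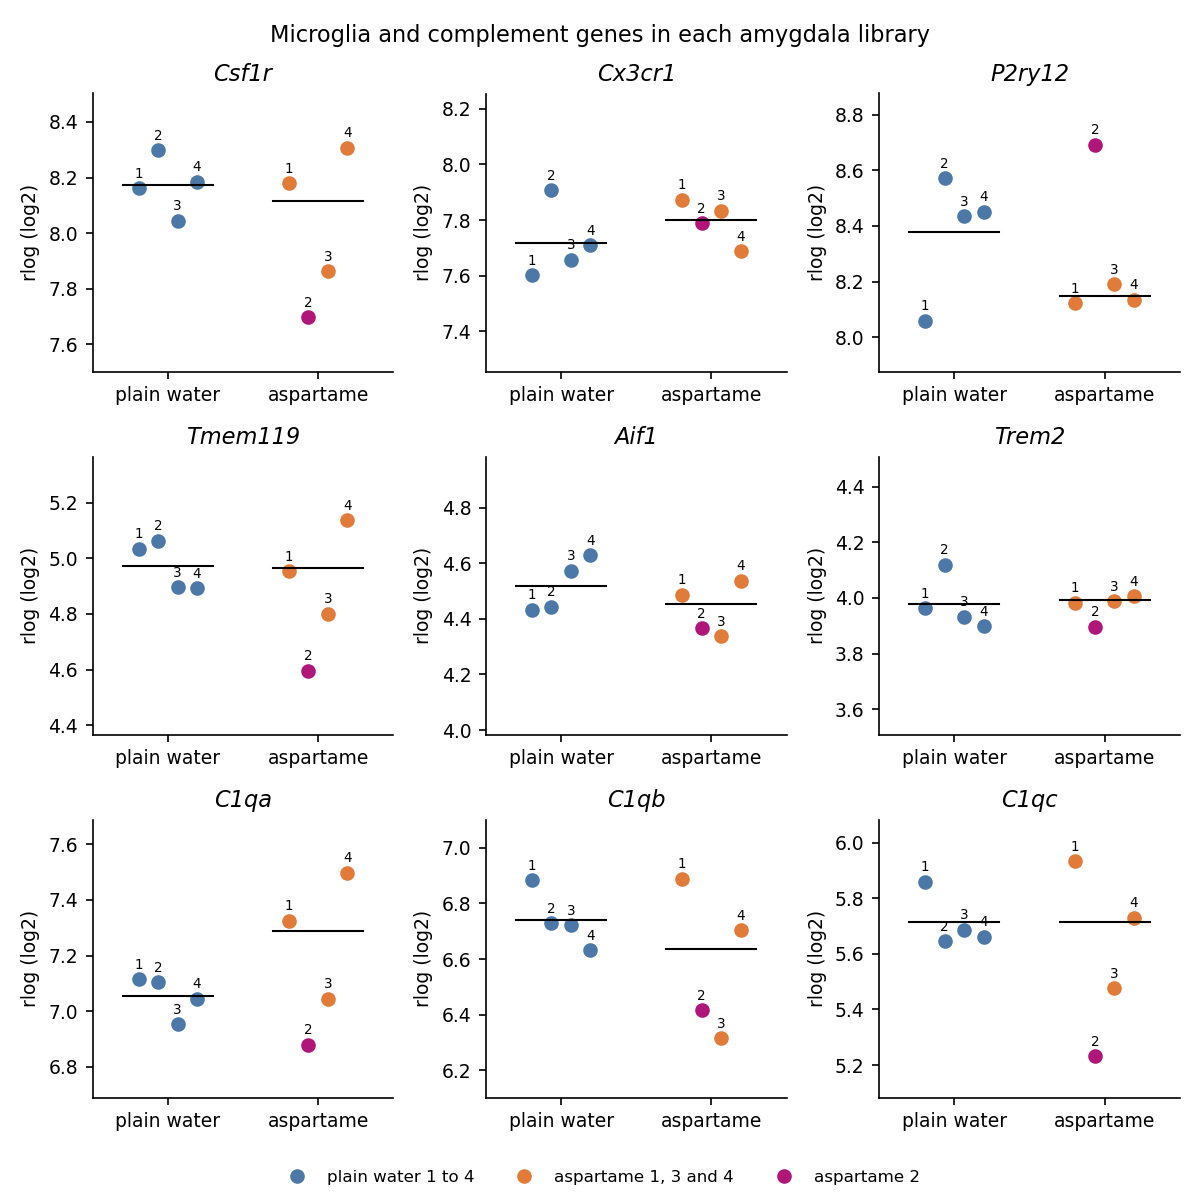
rlog (log2 scale, vertical axes, each spanning 1 unit) of the 9 genes in each amygdala library. Points are single libraries with their number, blue for plain water, orange for aspartame 1, 3 and 4 and magenta for aspartame 2, and lines are the means of water 1 to 4 and of aspartame 1, 3 and 4. The groups overlap in each of the 9 panels, and aspartame 2 is the lowest of the 8 libraries in 5 of them and the highest for *P2ry12*.

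The ratio of *C1qa* to *C1qb* separated the groups, although neither gene did so alone. Within a library, a difference of 2 rlog values is a log2 ratio of 2 mRNAs, in which the number of microglia in the sample would cancel if each microglial cell carried both mRNAs in a fixed ratio. *C1qa* minus *C1qb* was 0.231, 0.376, 0.230 and 0.413 in water 1 to 4, and 0.436, 0.465, 0.731 and 0.794 in aspartame 1 to 4. Every aspartame library, aspartame 2 included, was above every plain water library. Plain water averaged 0.313 ± 0.096 (SD, n = 4) and aspartame 0.607 ± 0.182 (SD, n = 4), which made a difference of 0.29 (two-sided exact permutation p = 0.0286, the smallest that 4 against 4 libraries allow). Over the 36 pairs among the 9 genes its adjusted p was 0.343, so it did not pass. Passing was not possible unless most of the 36 pairs reached that smallest p, so this adjustment could decide little. Of all genes tested, 4.1% had a difference from *C1qb* that separated the 8 libraries by group in the same way. With the trend of GC content and length removed, the ratio differed by 0.26, the groups overlapped and the exact permutation p was 0.0857. *C1qa* minus *C1qc* averaged 1.34 ± 0.098 (SD, n = 4) for plain water, against 1.59 ± 0.158 (SD, n = 4) for aspartame (exact permutation p = 0.0571, adjusted p = 0.514). *C1qb* minus *C1qc* was 1.03 ± 0.046 (SD, n = 4) and 0.988 ± 0.143 (SD, n = 4), with a difference of -0.040 and an exact permutation p of 0.657 (adjusted p = 0.946). Without aspartame 2 the difference was 0.34 for *C1qa* minus *C1qb* (exact permutation p = 0.0286, adjusted p = 0.343). It was then 0.24 for *C1qa* minus *C1qc* (exact permutation p = 0.114, adjusted p = 0.457) and -0.11 for *C1qb* minus *C1qc* (exact permutation p = 0.0857, adjusted p = 0.441).

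*Csf1r* and *Tmem119* also lay lower relative to *C1qa* in each aspartame library than in any plain water library. *Csf1r* minus *C1qa* was 1.05, 1.19, 1.09 and 1.14 in water 1 to 4, and 0.854, 0.818, 0.818 and 0.809 in aspartame 1 to 4. The aspartame values were nearly equal, and the means were 1.12 ± 0.062 (SD, n = 4) and 0.824 ± 0.020 (SD, n = 4), a difference of -0.29 (exact permutation p = 0.0286, adjusted p = 0.343). *Tmem119* minus *C1qa* was -2.08, -2.04, -2.06 and -2.15 in water 1 to 4, and -2.37, -2.28, -2.24 and -2.36 in aspartame 1 to 4, a difference of -0.23 (exact permutation p = 0.0286, adjusted p = 0.343). Without aspartame 2 the differences were -0.29 and -0.24, each with an exact permutation p of 0.0286 and an adjusted p of 0.343. Neither passed after adjustment over the 36 pairs, and neither could unless most of the pairs reached the smallest possible p. The groups did not overlap in 3 of the 36 pairs with all 8 libraries, each of which held *C1qa*. Without aspartame 2 they did not overlap in 5 of the 36. *Aif1* minus *C1qa* (-0.30) was then added, and so was *Cx3cr1* minus *P2ry12* (0.31), which does not hold *C1qa* (each with an exact permutation p of 0.0571 and an adjusted p of 0.411). Over all genes tested, 2.16% had a difference from *C1qa* that separated all 8 libraries by group. This share was not computed without aspartame 2, where the groups did not overlap in 23% of single genes, against 3.37% with all 8. With each library left out in turn the differences were -0.32 to -0.27 for *Csf1r* and -0.26 to -0.21 for *Tmem119*, and with the trend of GC content and length removed they were -0.33 and -0.28. Among the mice of 187 days, 2 in each group, the differences were -0.26 and -0.24, and the exact permutation p of 0.333 was the smallest that 2 against 2 allow. The 3 pairs that separated all 8 libraries were singled out after their values had been seen.

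**Figure D3:**
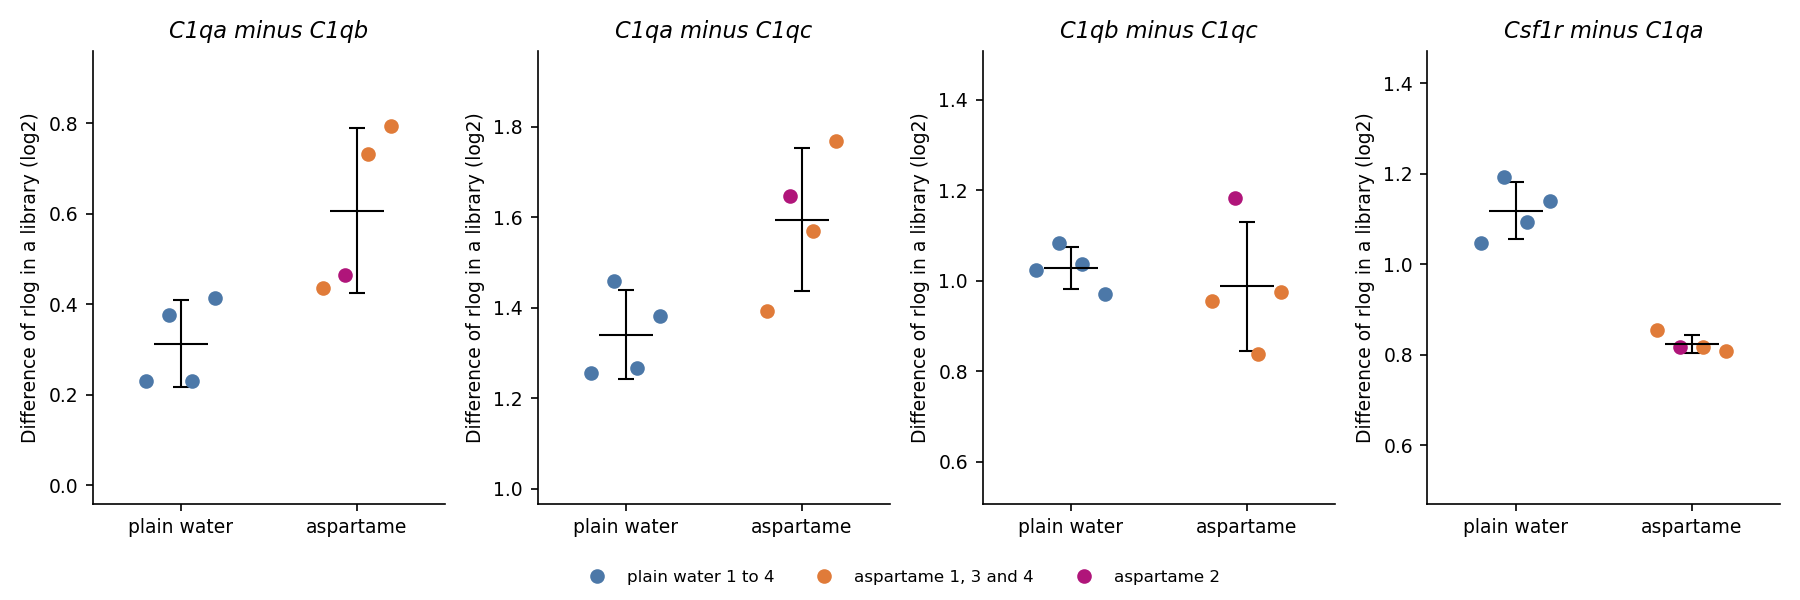
Difference of 2 rlog values within a library (log2 scale, vertical axes, each spanning 1 unit) for the pairs of C1q chain genes and for *Csf1r* minus *C1qa*, in plain water and aspartame libraries. Points are libraries, horizontal lines are means of 4 libraries and bars are 1 SD. *C1qa* minus *C1qb* lies at 0.230 to 0.413 in plain water and 0.436 to 0.794 with aspartame, and *Csf1r* minus *C1qa* at 1.05 to 1.19 and 0.809 to 0.854.

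Some of the 9 genes varied together from animal to animal, but how often pairs of other genes did so was not computed. The first principal component held 55.8% of the variance of all genes tested, so the counts below are not particular to these genes. Over the 36 pairs and all 8 libraries, Pearson's r was above 0 in 23 pairs, 8 pairs had an unadjusted permutation p under 0.05, and 1 passed after adjustment. That pair was *Csf1r* and *Tmem119*, with r = 0.947 (exact permutation p = 0.000546, adjusted p = 0.0196). Spearman's rho was 0.833 (exact permutation p = 0.0154, adjusted p = 0.196), and r was 0.799 without the 2 libraries farthest from the median of *Csf1r*. Without aspartame 2, r was 0.876 and no longer passed (exact permutation adjusted p = 0.168), and in all 8 libraries with the trend of GC content and length removed it was 0.701. *C1qb* and *C1qc* had an r of 0.889 (exact permutation p = 0.00300, adjusted p = 0.0540) and a rho of 0.810 (exact permutation p = 0.0218, adjusted p = 0.196). For this pair r was 0.910 without the 2 libraries farthest from the median, 0.928 without aspartame 2 (exact permutation adjusted p = 0.157) and 0.724 with the GC and length trend removed. For *C1qa*, r was 0.627 with *C1qc* (exact permutation p = 0.0979, adjusted p = 0.313) and 0.478 with *C1qb* (exact permutation p = 0.219, adjusted p = 0.437), and these were -0.40 and -0.18 with the GC and length trend removed. With each group's mean subtracted, r was 0.818 for *C1qa* and *C1qc*, 0.739 for *C1qa* and *C1qb* and 0.883 for *C1qb* and *C1qc*. The difference between these correlations was not tested. *P2ry12* had a negative r with 7 of the 8 other genes in all 8 libraries, with 4 of 8 without aspartame 2, and with 1 of 8 once the GC and length trend was removed. Its r with *C1qc* was -0.70 (exact permutation p = 0.0451, adjusted p = 0.213), and -0.033 with that trend removed.

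The genes most like the 9 in pattern were sought among the 10112 genes whose mean rlog reached 5, as a description over 8 libraries with no test. The mean of *C1qa*, *C1qb* and *C1qc* was most like *1700037H04Rik* (r = 0.991), *Sema4a* (0.983), *2310022A10Rik* (0.979), *Cltb* (0.979) and *Nipal3* (0.976). The mean of *Csf1r*, *Cx3cr1*, *P2ry12* and *Tmem119* was most like *Spag5* (r = 0.906), *Plekhh2* (0.862), *Casp2* (0.859), *Stard8* (0.853) and *Sept11* (0.851). None of these 10 genes belonged to the microglia or complement lists examined. The points of such a correlation share their library, and with it the library's balance of GC-rich and GC-poor genes.

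The deviations of the 9 genes from their plain water means were also read beside the GC content of their transcripts. *P2ry12* had the lowest GC content at 38.6%, *Cx3cr1* had 50.3%, *Aif1* 51.4% and *Csf1r* 54.5%, and the other 5 had 57.4% to 59.5%, with *C1qa* highest. In aspartame 2, where GC-rich genes were lowest, *P2ry12* was 0.31 and *Cx3cr1* 0.070 above the plain water mean, and the 7 other genes were 0.081 to 0.48 below it. In aspartame 4, where the gap between GC-rich and GC-poor genes was the highest (0.46), *C1qa* was 0.44 above the plain water mean and *P2ry12* 0.25 below it. Aspartame 3 did not stand out in this gap (0.032), yet 7 of the 9 genes were below the plain water mean in it, *C1qb* by 0.43, *Csf1r* by 0.31 and *C1qc* by 0.24. The number below the plain water mean was 3 of 9 in aspartame 1, 7 of 9 in aspartame 2, 7 of 9 in aspartame 3 and 3 of 9 in aspartame 4. The part of GC content in the differences between the groups was not tested beyond the fits with its trend removed.

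**Figure D4:**
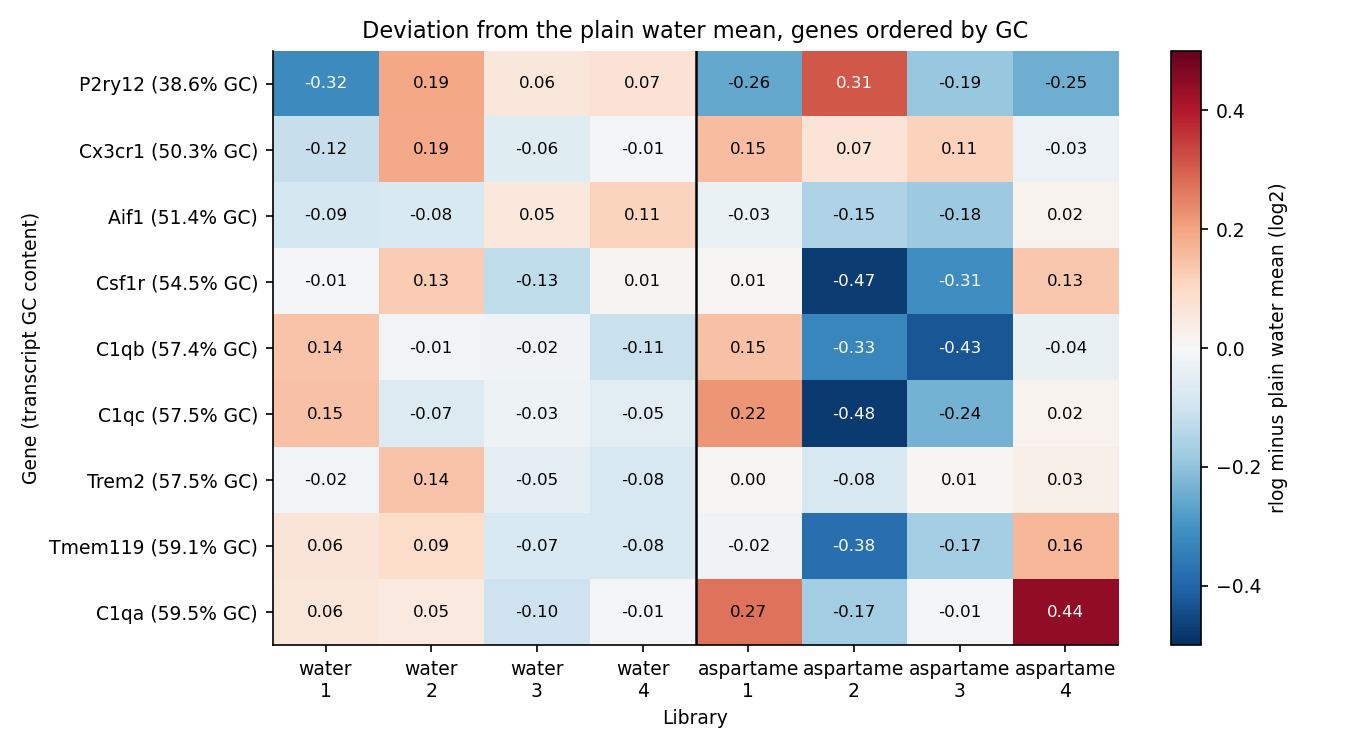
Deviation of each of the 9 genes from its plain water mean (color and number in each cell, rlog on the log2 scale) in the 8 libraries (columns), with the genes (rows) ordered from the lowest to the highest transcript GC content. In aspartame 2 the deviation is 0.31 for *P2ry12* and -0.48 for *C1qc*, and in aspartame 4 it is -0.25 for *P2ry12* and 0.44 for *C1qa*.

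Other homeostatic microglia genes were also divided in sign. Of 38 further genes of this kind, 34 were tested without aspartame 2, where 1 rose, 1 fell and 11 had an unadjusted p under 0.05 (beside 8.81% called and 27.1% with such a p of all genes), with a median difference of -0.045. Over all 8 libraries 33 were tested, 0 were called by limma, 2 had an unadjusted p under 0.05 and the median was -0.056. *Fcgr3*, a receptor for immunoglobulin G, fell without aspartame 2. Its rlog was 6.05, 6.20, 6.26 and 6.09 in water 1 to 4 and 5.90, 6.00, 5.71 and 5.79 in aspartame 1 to 4, so that all 4 aspartame libraries were below all plain water libraries. The difference was -0.35 (SE 0.091, adjusted p = 0.0373), and -0.30 with all 8 (adjusted p = 0.903). *Laptm5*, a lysosomal membrane protein of blood-derived cells, rose without aspartame 2, with 6.33, 6.49, 6.35 and 6.39 in water 1 to 4 and 6.64, 6.16, 6.68 and 6.71 in aspartame 1 to 4. Aspartame 2 was below all plain water libraries and the other 3 were above them. The difference was 0.29 (SE 0.081, adjusted p = 0.0490), and 0.16 with all 8 (adjusted p = 0.903). The call of *Fcgr3* was lost without water 2, 3 or 4 or aspartame 3 or 4 (adjusted p 0.0521 to 0.125), and that of *Laptm5* without water 1, 2, 3 or 4 or aspartame 1 or 4 (0.0734 to 0.147). *Spi1*, which encodes PU.1, had a mean rlog of 1.92 and was not tested.

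Across 42 homeostatic genes tested in all 8 libraries, the 9 included, the deviation from the plain water mean followed the GC content of the transcript. Its direction was opposite in aspartame 2 and in the mean of aspartame 1, 3 and 4. The gap between GC-rich and GC-poor genes over all genes tested was -0.65 in aspartame 2, and 0.38, 0.032 and 0.46 in aspartame 1, 3 and 4. It was -0.22 to 0.20 in plain water, so the tilt was not limited to microglia genes and was not seen in aspartame 3. Spearman's rho across genes, which are not independent replicates, was -0.82 for aspartame 2 and 0.66 for the mean of aspartame 1, 3 and 4. Of the 20 genes under 50% GC, 4 were below the plain water mean in aspartame 2 and 18 in the mean of aspartame 1, 3 and 4, with median deviations of 0.12 and -0.17. Of the 22 genes at 50% GC or above, 20 were below it in aspartame 2 and 9 in the mean of the others, with median deviations of -0.22 and 0.037.

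**Figure D5:**
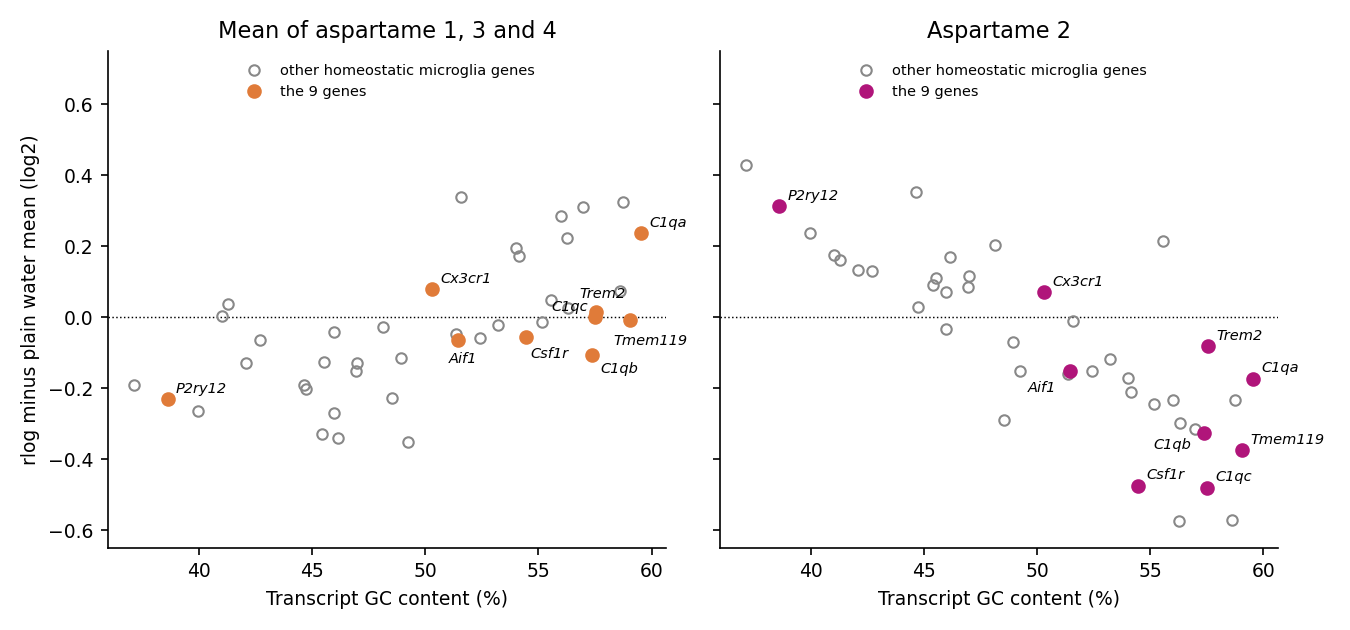
Deviation from the plain water mean (rlog on the log2 scale, vertical axes) against transcript GC content in percent (horizontal axes) for 42 homeostatic microglia genes, as the mean of aspartame 1, 3 and 4 (left) and in aspartame 2 (right). Filled points are the 9 genes and open points the 33 others. Spearman's rho across genes is 0.66 on the left and -0.82 on the right.

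Among the ligands and signaling partners of the 9 genes, *Apoe* rose without aspartame 2. Of 23 listed genes 21 were tested, and limma called 1 as higher and 0 as lower, beside 8.81% of all genes in either direction. An unadjusted p under 0.05 was found for 2 of 21, beside 27.1% of all genes, with a median difference of -0.0054. With all 8, 0 were called, 0 had an unadjusted p under 0.05 and the median was -0.017. *Apoe* encodes a lipid carrier made mainly by astrocytes and bound by TREM2. Its rlog was 10.55, 10.38, 10.16 and 10.36 in water 1 to 4 and 11.03, 9.87, 10.81 and 11.40 in aspartame 1 to 4. Aspartame 1, 3 and 4 were above all plain water libraries and aspartame 2 below them, with a difference of 0.72 (SE 0.131, adjusted p = 0.0123) without aspartame 2 and 0.41 (adjusted p = 0.903) with all 8. Without water 3 its adjusted p was 0.0509. *Fcer1g*, a signaling adaptor of Fc receptors, differed by -0.31 (adjusted p = 0.0645) without aspartame 2. Named by role after their values had been seen, the ligand genes of CSF1R differed by -0.015 (*Csf1*, adjusted p = 0.935) and 0.047 (*Il34*, adjusted p = 0.829) without aspartame 2. *Cx3cl1*, which encodes fractalkine, differed by 0.21 (adjusted p = 0.258), and *Tyrobp*, the adaptor of TREM2, by -0.049 (adjusted p = 0.810).

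Beyond C1q, 25 of 46 other complement genes were tested. Without aspartame 2, limma called 2 as higher and 0 as lower and 5 had an unadjusted p under 0.05, beside the same 8.81% and 27.1% of all genes, with a median difference of -0.029. With all 8, 0 were called and 1 had an unadjusted p under 0.05, with a median of -0.048. Both called genes are known chiefly from neurons, and their proteins carry domains shared with complement regulators. *Sez6* was 9.21, 8.84, 9.03 and 9.06 in water 1 to 4 and 9.67, 8.62, 9.43 and 9.75 in aspartame 1 to 4, a difference of 0.58 (SE 0.103, adjusted p = 0.0122), and 0.33 with all 8 (adjusted p = 0.903). *Csmd2* was 7.64, 7.60, 7.61 and 7.61 in water 1 to 4 and 7.86, 7.46, 8.02 and 8.41 in aspartame 1 to 4, a difference of 0.48 (SE 0.113, adjusted p = 0.0287), and 0.32 with all 8 (adjusted p = 0.903). In both genes aspartame 2 was below all plain water libraries. *Sez6* lost its call without water 3 (adjusted p = 0.0501) and *Csmd2* without water 2, 3 or 4 or aspartame 4 (0.0635 to 0.0885). The next steps of the classical pathway, named after their values had been seen, were at a mean rlog of 6.52 for *C4b*, which differed by 0.30 (adjusted p = 0.201), and 1.56 for *C3*, which was not tested.

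Among genes of activated and disease-associated microglia, *Apoe*, *Cd74* and *Csf2ra* rose without aspartame 2, but the list as a whole was divided in sign. A higher mean with aspartame was found in 9 of the 19 genes tested without aspartame 2, and in 6 of 19 with all 8. Of 36 listed genes 19 were tested, and limma called 3 of 19 as higher and 0 as lower, beside 8.81% of all genes in either direction. An unadjusted p under 0.05 was found for 7 of 19, beside 27.1% of all genes, and the median difference was -0.024. With all 8, 0 were called, 1 had an unadjusted p under 0.05 and the median was -0.093. *Cd74* encodes the invariant chain of antigen presentation and *Csf2ra* a chain of the GM-CSF receptor. *Cd74* was 3.57, 3.68, 3.72 and 3.80 in water 1 to 4 and 4.12, 3.61, 3.91 and 3.99 in aspartame 1 to 4 (difference 0.31, SE 0.082, adjusted p = 0.0396). *Csf2ra* was 6.29, 6.24, 6.30 and 6.19 in water 1 to 4 and 6.63, 6.01, 6.43 and 6.83 in aspartame 1 to 4 (difference 0.37, SE 0.100, adjusted p = 0.0417). In both, aspartame 1, 3 and 4 were above all plain water libraries and aspartame 2 was not. With all 8 the differences were 0.21 and 0.22 (adjusted p = 0.903), and each call was lost without water 1, 2, 3 or 4 or aspartame 1 or 4 (adjusted p 0.0541 to 0.132).

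Markers of other cells that the dissection could hold were read in the same libraries, and their part in the values above was not tested. Without aspartame 2, limma called 8.81% of all genes and 27.1% had an unadjusted p under 0.05. Of 13 border macrophage genes 5 were tested in that comparison, 0 were called and 1 (*Stab1*, 0.27, adjusted p = 0.141) had an unadjusted p under 0.05. *Mrc1* of the same list differed by -0.15 (adjusted p = 0.431). Their summed level, the log2 of summed rlog levels on the linear scale, was 7.01 to 7.19 in plain water, 7.09 to 7.27 in aspartame 1, 3 and 4 and 6.90 in aspartame 2. None of 14 blood leukocyte and 5 red cell genes reached the level for testing, with summed levels of 3.40 to 3.47 and 3.44 to 3.62 in plain water. *Plac8* and the 4 globin genes were listed at 0 in every library. These constant values entered the sums as if they were levels. The red cell sum thus varied only through *Alas2* and was not a measure of blood content. The summed level of the 9 genes was 10.1 to 10.3 in plain water, 10.1 to 10.2 in aspartame 1, 3 and 4 and 10.2 in aspartame 2.

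Genes of other brain cells were read beside the shares over all genes tested. Without aspartame 2, limma called 8.81% of all genes and 27.1% had an unadjusted p under 0.05. In this comparison 2 of 12 neuronal genes rose (*Nefm* by 0.46, adjusted p = 0.0106, and *Rbfox3* by 0.37, adjusted p = 0.0371) and 1 fell (*Stmn2*, a difference of -0.26, adjusted p = 0.0448). Of 9 oligodendrocyte genes 1 rose, *Mbp* of myelin (0.62, adjusted p = 0.0398), and *Mag* differed by 0.48 (adjusted p = 0.142). The median deviation of this list was 0.57 in aspartame 1. Of 6 oligodendrocyte precursor genes 1 rose, *Cspg4* (0.48, adjusted p = 0.0167), and *Pdgfra* differed by -0.18 (adjusted p = 0.131). None of 10 astrocyte genes (*Acsbg1* 0.30, adjusted p = 0.0719; *Aldoc* 0.24, adjusted p = 0.0744) and none of 10 endothelial and pericyte genes (*Pdgfrb* 0.32, adjusted p = 0.0550; *Slco1a4* -0.37, adjusted p = 0.0710) was called, although 2 and 3 of them had an unadjusted p under 0.05. Of 4 choroid plexus genes tested 0 were called and 0 had an unadjusted p under 0.05, but *Ttr* was 10.2 in water 1 against 5.96 to 6.93 elsewhere. With all 8 libraries limma called 0 genes of any of these lists. There, 2 neuronal and 1 precursor gene had an unadjusted p under 0.05, beside 4.3% of all genes tested. Apart from *Nefm*, each of these calls was also lost in limma with 1 of several further libraries left out (adjusted p up to 0.0624 for *Cspg4*, 0.117 for *Mbp*, 0.121 for *Rbfox3* and 0.135 for *Stmn2*). With the trend of GC content and length removed, *Apoe* was the only named gene of these lists that limma still called (adjusted p = 0.0302), and with age as a covariate *Apoe*, *Sez6* and *Nefm* were.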

How the data were processed

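RNA of the amygdala was measured in 8 libraries, grouped by their labels. The authors sequenced stranded mRNA libraries as paired reads, aligned the reads to mm10 using STAR, obtained gene counts from Salmon and used DESeq2. The deposited values are log2 values, taken as rlog from the name of the table, for 24982 genes, of which 6350 were constant. The transformation's options are not given in the sources used here. No counts were at hand, so depth is unknown and no count model or counting interval was possible, and the number of libraries limits the precision.

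The limma package (3.58.1, with R 4.3.3) tested all varying genes whose mean rlog reached 3, by empirical Bayes with a mean-variance trend, with Benjamini-Hochberg adjustment over all genes tested. On simulated data of 4 against 3 libraries and 12870 genes, 61 of 100 log2 changes of 0.5 were recovered. For changes of 1 it was 93 of 100, and 7 of 161 calls were of unchanged genes. The simulated noise was drawn gene by gene, without a factor common to all genes of a library. In the real libraries the first principal component held 55.8% of the variance. Recovery and false calls in the real data may differ from the simulated ones and were not measured. Ratios and correlations used two-sided exact permutation over libraries, adjusted over 36 pairs. Coordinates, length and GC content (longest transcript, protein coding first) came from GENCODE M21 on GRCm38, with GC content for 12778 of the 12861 genes tested in all 8 libraries. Promoters were from RefSeq. The alternatives were each library left out, no filter or a minimum of 5, quantile normalization, equal medians, no trend, age in days, the replicate number as a block, and removal from each library of its trend with GC content and log length, fitted by splines with 5 degrees of freedom. Mice of 187 days only and all alternatives for ratios were added after seeing the data. The 9 genes and all lists were chosen with earlier results of these data known. From each other list up to 4 called genes were named by smallest p, or, with under 2 calls, the 2 genes lowest in p, besides those said to be named after their values had been seen. Other software was Python 3.11.15 with scipy 1.17.1, numpy 2.4.6, matplotlib 3.10.9 and pandas 2.3.3.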

Additional observations from a re-analysis of the deposited data

Results flagged for a closer look

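In 70 groups of 4 libraries examined, covering the 9 genes, the named genes of other lists and 3 ratios, 5 held a library whose gap to its nearest neighbor exceeded 0.829 of the range of the group. Chance flags about 1 in 20 groups. Among the 9 genes this was *P2ry12*, at 8.69 in aspartame 2, with a gap of 0.882 of the range, where the other aspartame libraries lay at 8.12 to 8.19. *Laptm5* was 6.16 in aspartame 2 (0.875 of the range), below the other aspartame libraries. *Mrc1*, the mannose receptor of border macrophages, was 5.21 in aspartame 1 (0.906), above the others. The choroid plexus genes *Kcnj13* (5.58, 0.870) and *Ttr* (10.2, 0.904) were high in water 1.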

How the results depend on the processing

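Of the alternatives to the differences of the 9 genes, 277 kept both sign and side of the threshold, 21 changed sign and 2 gave a call. The number of called genes of all tested without aspartame 2, 1134, was 110 to 2082 with 1 further library left out, 222 with age as a covariate, 280 with the GC and length trend removed, 12 in mice of 187 days only and 0 with all 8 libraries. The number of called genes among the 9 was 0 to 1 with 1 library left out and 0 otherwise. Pairing of the animals by replicate number was not evident (correlations of same-numbered deviations 0.53, 0.15, 0.061 and -0.099, against -0.56 to 0.43 for others). This check could not decide whether the numbers carry a pairing. With the replicate number as a block, without aspartame 2, 1379 genes and 0 of the 9 were called, and *Tmem119* turned to 0.023. With the block and the GC and length trend removed 170 were called, *P2ry12* turned to 0.031, *Aif1* to 0.075, *Trem2* to -0.00016 and *Stab1* to -0.015. With that trend removed and no block, *Aif1* turned to 0.087, *Trem2* to -0.062 and *Stab1* to -0.063, and over all 8 libraries *Aif1* to 0.043 and *Stab1* to -0.066, the same with the block. *Trem2* was -0.014 after quantile normalization and -0.0099 with all 8, and *Tmem119* 0.0030 in mice of 187 days.

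With 1 library left out beside aspartame 2, *Csf1r* ranged from -0.15 to 0.071, *Tmem119* from -0.094 to 0.074, *Trem2* from -0.013 to 0.061, *C1qb* from -0.23 to 0.055, *C1qc* from -0.11 to 0.12, *Kcnj13* from -0.36 to 0.020 and *Ttr* from -1.02 to 0.38. With 1 of all 8 left out, *Trem2* ranged from -0.037 to 0.037 and *Ttr* from -1.02 to 0.38. The r of *C1qb* and *C1qc* was 0.88 with group means subtracted (permutation adjusted p = 0.0362). That p is not exact, because values centered within each group cannot be swapped freely between groups. In this setting r was 0.976 for *Csf1r* and *C1qa*, 0.968 for *Tmem119* and *C1qa*, and 0.944 for *Csf1r* and *Tmem119*. *C1qa* minus *C1qb* differed by 0.23 to 0.35 with 1 library left out (exact permutation p 0.0286 to 0.114), by 0.26 with the GC and length trend removed and by 0.53 in mice of 187 days (exact permutation p = 0.333), where *Csf1r* and *Tmem119* minus *C1qa* differed by -0.26 and -0.24. The cause of these changes was not tested. Fits with libraries left out rest on fewer samples.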

Other observations

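Of the 36 genes of activated and disease-associated microglia, 19 had a mean rlog high enough for testing. Among those that did not, mean rlog over the 8 libraries was -0.012 for *Il1b*, -1.47 for *Tnf*, -1.08 for *Cst7*, 1.07 for *Clec7a* and 0.78 for *Itgax*, genes named after their values had been seen. Among those tested were lysosomal genes, with a mean rlog of 9.87 for *Ctsd*, which encodes cathepsin D, and 5.03 for *Cd68*.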
